A study of Mus musculus with 8 samples.

Results

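Tipin, Timeless, Clspn and Mcm2 to Mcm7 encode the replicative helicase of the DNA replication fork and 3 proteins that travel with it. The 9 genes were taken by symbol from 54532 genes listed in the deposited expression table of a mouse hippocampus RNA-seq study. All 9 symbols were found, each on 1 row. They were selected on the FPKM of wild-type (WT) against Kat6a+/- libraries in this study, with that comparison's earlier results known, so their genotype differences are given below as a description, without a test.

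The MCM2 to MCM7 proteins form a ring with 1 copy of each subunit. The ring is loaded on origins in G1 and, once CDC45 and GINS have joined it in S phase, unwinds the parental duplex. TIMELESS and TIPIN form a heterodimer at the moving fork that couples the helicase to the polymerases, and with claspin it passes the signal of a stalled fork from ATR to the checkpoint kinase CHK1. Transcription of many of these genes is known to be driven by E2F factors as cells enter S phase. In the adult hippocampus nearly all cells are postmitotic, with dividing cells found mainly among neural progenitors of the dentate gyrus and oligodendrocyte precursors.

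The study measured total RNA from the hippocampus of adult mice by Illumina sequencing in 8 libraries, 4 of WT and 4 of Kat6a+/- animals. Kat6a encodes a MYST family histone acetyltransferase, and Kat6a+/- animals are heterozygous at this locus. The labels used here give no strain, sex, allele design or age beyond adult, and no treatment of either group. Whether every library is a different animal is not stated, so a p-value here reflects library-to-library spread, which may be technical. Levels are FPKM, reads scaled by gene length and library depth, as deposited. Between 16462428 and 27875310 reads were assigned to genes per library, of which the 9 genes took 995 to 1864 reads, or 0.00542% to 0.00669%.

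Kat6a was at 9.35, 8.97, 8.55 and 9.71 FPKM in the WT libraries and at 6.06, 7.64, 7.32 and 7.06 FPKM in the Kat6a+/- libraries. Every Kat6a+/- library was below every WT library, and the Kat6a+/- mean was 76.7% of the WT mean, so the genotype labels and the targeted transcript point the same way. The tissue label was checked on neuronal markers. Rbfox3, which encodes the neuronal nuclear antigen NeuN, ran from 46.3 to 52.8 FPKM over the 8 libraries, and Prox1, a marker of dentate granule cells, from 11.3 to 15.4 FPKM. Wfs1, a marker of CA1 pyramidal cells, averaged 42.5 ± 3.93 FPKM in WT and 38.2 ± 1.26 in Kat6a+/- (SD, n = 4 each; log2 difference -0.15, 95% interval -0.29 to -0.01, limma adjusted p = 0.9998), with overlapping groups. The summed levels of 10 cell type marker lists overlapped between the genotypes in all 10 lists, and no marker was at 0 in every library. Kat6a+/- replicate 2 stood apart in 1 of them: its choroid plexus and ependyma markers summed to 163 FPKM, where the remaining 7 ran from 30.2 to 53.2 FPKM, led by Ttr, the transthyretin gene of choroid plexus epithelium, at 119 FPKM against 7.61 to 20.5 FPKM. Levels or genotype differences of the 9 genes, and some of the results that rest on them, are therefore also given without this library. In bulk tissue, fewer cells of a type and less RNA per cell cannot be told apart.

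The 9 transcripts covered a wide range of levels. Their order by mean FPKM over the 8 libraries ran from Tipin at 4.58 ± 0.629 FPKM through Mcm6 at 3.17, Mcm4 at 2.83, Mcm7 at 2.35, Mcm5 at 1.25, Mcm3 at 0.805, Mcm2 at 0.785 and Timeless at 0.461 to Clspn at 0.164 FPKM. Of the 8 pairs of neighbours in this order, 6 differed in an exact two-sided sign-flip test over the 8 libraries, with Benjamini-Hochberg adjustment over the 8 pairs. Tipin exceeded Mcm6 by 0.53 ± 0.24 in log2 FPKM (SD, n = 8; higher in 8 of 8 libraries; exact adjusted p = 0.0125, from the smallest p the test allows, 0.00781). Mcm6 and Mcm4 were not separated, with a mean log2 difference of 0.16 ± 0.23 and Mcm6 the higher in 5 of 8 libraries (exact adjusted p = 0.0893). Mcm3 and Mcm2 were not separated either, with a difference of 0.02 ± 0.29 and Mcm3 the higher in 4 of 8 libraries (exact adjusted p = 0.844). The widest step was the last, where Timeless exceeded Clspn by 1.56 ± 0.49 (8 of 8 libraries; exact adjusted p = 0.0125). Among 22046 protein-coding genes listed, the mean of Tipin stood at the 66.9th percentile and that of Clspn at the 36.7th. FPKM here divides by all annotated exon bases of a gene, noncoding transcripts included, so comparisons between genes depend on these lengths. Mcm2, with 6956 bases from 7 transcripts of which 1 is protein-coding, had 73 to 156 reads per library. Mcm3, with 3752 bases, had 41 to 99. Tipin, with 1869 bases, had 126 to 267 reads and Mcm6, with 4666 bases, 216 to 435.

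Fork-protection genes are described first. Tipin (ENSMUSG00000032397, GRCm38, chr9:64281581-64305424, plus strand) encodes the partner that stabilises TIMELESS and carries an RPA-binding region. It was at 3.92, 4.08, 4.04 and 4.25 FPKM in the WT libraries and at 4.96, 5.78, 4.82 and 4.79 FPKM in the Kat6a+/- libraries, from 126 to 267 reads per library. All 4 Kat6a+/- libraries lay above all 4 WT libraries, which differed little among themselves. The group means were 4.07 ± 0.139 and 5.09 ± 0.468 FPKM (SD, n = 4 each), so Kat6a+/- stood at 125% of WT. On the log2(FPKM + 0.5) scale used throughout for genotype differences, the difference was 0.29 ± 0.06 (SE; 95% interval 0.14 to 0.43). The highest value, 5.78 FPKM, came from Kat6a+/- replicate 2, and without that library the difference was 0.23 for Tipin, with 0.17 for Mcm2 and 0.31 for Mcm3, described below, where all libraries gave 0.19 and 0.32.

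Beside Tipin, a higher Kat6a+/- mean was found for 10 of 10 markers of choroid plexus and ependyma (sums of 30.2 to 48.7 FPKM in WT and 41.9 to 163 FPKM in Kat6a+/-) and 8 of 8 of oligodendrocytes (602 to 876 and 724 to 914 FPKM). It was also found for 7 of 9 neuronal markers (2578 to 2808 and 2702 to 2938 FPKM), 6 of 8 of mural cells and 6 of 8 of endothelium. A lower Kat6a+/- mean was found for 7 of 8 astrocyte markers (617 to 693 FPKM in WT and at most 664 FPKM in Kat6a+/-), 8 of 10 of neural progenitors and young neurons (27.4 to 33.6 and 26.3 to 29.6 FPKM) and 6 of 7 of leptomeninges (5.86 to 13.2 and 5.44 to 9.20 FPKM). WT replicate 1 gave the highest sum of all 8 libraries for each of these lists and the lowest for oligodendrocytes. Microglia markers were 4 higher and 4 lower, and those of oligodendrocyte precursors 5 higher and 3 lower. The part of these lists in the Tipin difference was not tested. Folr1 and Kcnj13, markers of choroid plexus epithelium, averaged under 0.5 FPKM. With genotype means removed, Tipin and the mean choroid plexus and ependyma score had a Pearson r of 0.57 and a Spearman rho of 0.48 over the 8 libraries (exact permutation p = 0.170 and 0.220; adjusted over 8 such relations, 0.681 and 0.713), and r was 0.32 without the 2 libraries farthest from the median. The relations were chosen after the data had been seen.

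Timeless (ENSMUSG00000039994, chr10:128232065-128252941, plus strand), named for a Drosophila clock gene, encodes the other subunit of the heterodimer. Its level was 0.404, 0.456, 0.444 and 0.461 FPKM in the WT group and 0.540, 0.414, 0.479 and 0.488 in Kat6a+/-, from 46 to 95 reads per library. The groups overlapped, since Kat6a+/- replicate 2, the library with the most Tipin, had less Timeless than 3 of the WT libraries. Without that library the Kat6a+/- range was 0.479 to 0.540 FPKM, above all 4 WT libraries. The means were 0.441 ± 0.0254 and 0.480 ± 0.0514 FPKM (SD, n = 4 each), and the log2 difference without a filter on low values was 0.06 (95% interval -0.15 to 0.26), and 0.13 on the recovered reads with DESeq2. Tipin transcript exceeded Timeless transcript per length in every library, by a ratio of 8.96 to 14.0 with a median of 9.46. The WT ratios lay between 8.96 and 9.68, while the highest ratio, 14.0, was that of Kat6a+/- replicate 2; the other 3 Kat6a+/- ratios lay between 9.20 and 10.1.

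Clspn (ENSMUSG00000042489, chr4:126556935-126593903, plus strand) encodes claspin, the adaptor through which ATR activates CHK1. It was at 0.193, 0.101, 0.170 and 0.115 FPKM in the WT group and at 0.256, 0.173, 0.104 and 0.200 in Kat6a+/-. These values rest on 12 to 53 reads per library, and the genotypes overlapped over most of their range. The means were 0.145 ± 0.0436 and 0.183 ± 0.0633 FPKM (SD, n = 4 each), and the log2 difference without a filter was 0.08 (95% interval -0.12 to 0.28). The constant of 0.5 FPKM exceeds the level of Clspn itself and compresses this value: the Kat6a+/- mean was 126% of WT, or 129% without Kat6a+/- replicate 2, and DESeq2 on the recovered reads gave a log2 difference of 0.35.

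**Figure D1:**
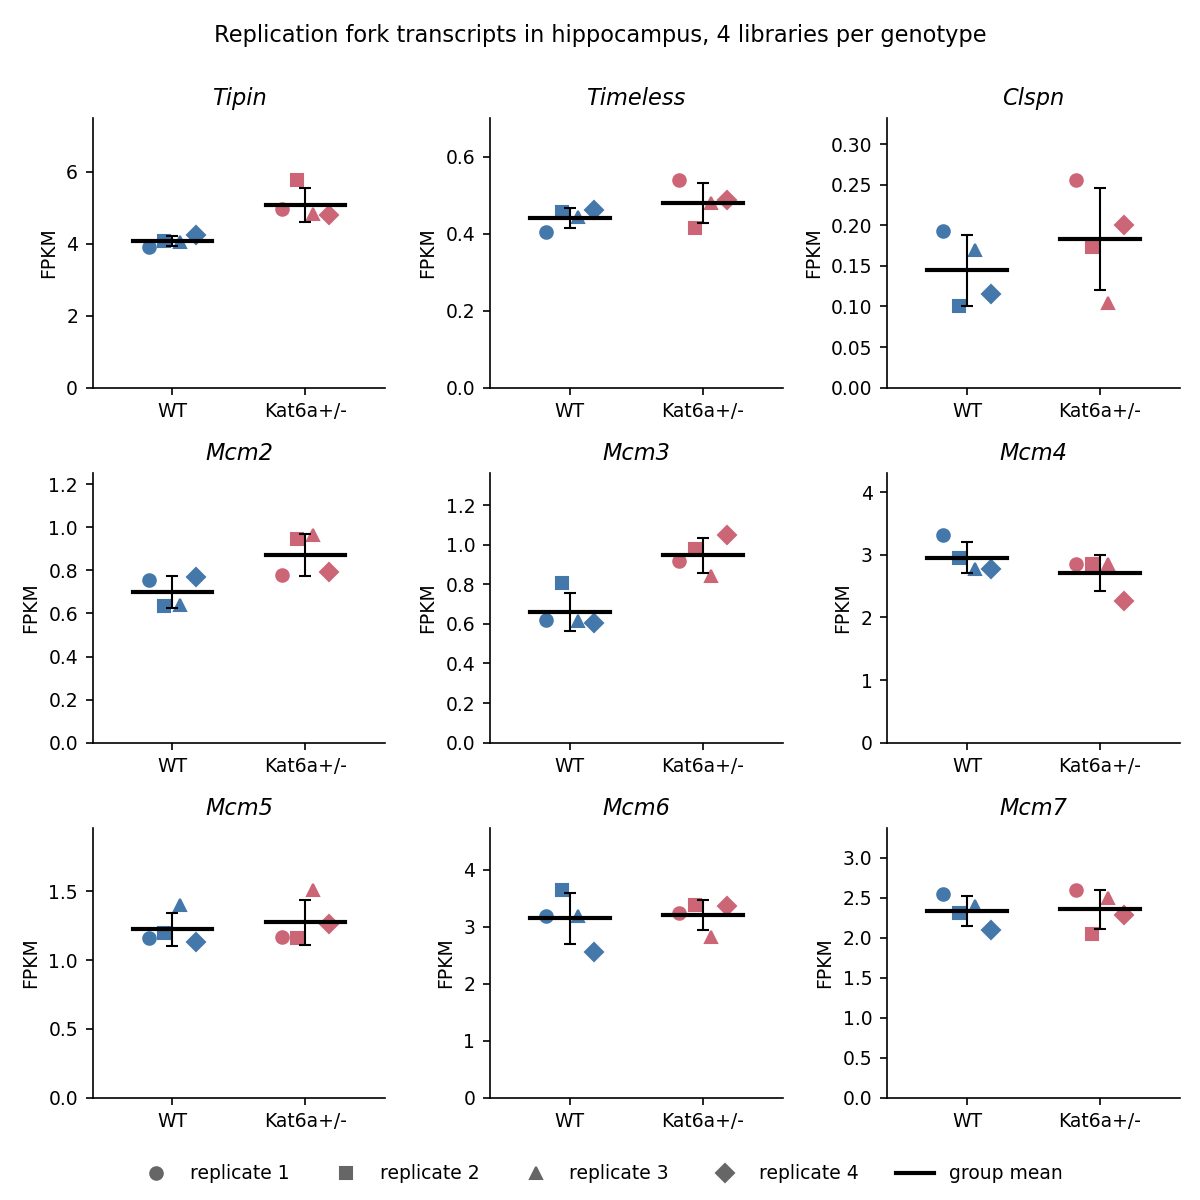
FPKM (vertical axes, each from 0) of the 9 genes in 4 WT and 4 Kat6a+/- libraries; symbols mark replicates, thick bars the group means and thin bars the SD. For Tipin the WT libraries lie at 3.92 to 4.25 and the Kat6a+/- libraries at 4.79 to 5.78, and the groups also separate for Mcm2 and Mcm3 but overlap in the other 6 panels.

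The 6 helicase genes can be split into 2 sets by FPKM. Mcm4, Mcm6 and Mcm7, whose products form a core that shows helicase activity on its own in vitro, averaged 2.35 to 3.17 FPKM, and Mcm2, Mcm3 and Mcm5, whose products are often called regulatory subunits, averaged 0.785 to 1.25 FPKM. Mcm7 at 2.35 FPKM exceeded Mcm5, the highest of the lower set, in 8 of 8 libraries by 0.91 ± 0.16 in log2 FPKM (SD; exact adjusted p = 0.0125). Mcm5 in turn exceeded Mcm3 in 8 of 8 libraries by 0.66 ± 0.35 (SD; exact adjusted p = 0.0125), so the lower set was not uniform.

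Mcm2 (ENSMUSG00000002870, chr6:88883474-88898780, minus strand), whose product also binds histones H3 and H4 at the fork, was at 0.754, 0.636, 0.637 and 0.770 FPKM in the WT group and at 0.779, 0.948, 0.965 and 0.792 in Kat6a+/-. The groups did not overlap, but the highest WT and the lowest Kat6a+/- library nearly met. The means were 0.699 ± 0.0727 and 0.871 ± 0.0993 FPKM (SD, n = 4 each; 125% of WT), and the log2 difference was 0.19 ± 0.11 (SE; 95% interval -0.04 to 0.43). On the recovered reads with edgeR, which does not use the constant of 0.5 FPKM, the difference was 0.31.

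Mcm3 (ENSMUSG00000041859, chr1:20802968-20820312, minus strand), the neighbour of MCM5 and MCM7 in the ring, was at 0.620, 0.807, 0.615 and 0.603 FPKM in the WT group and at 0.917, 0.981, 0.841 and 1.05 in Kat6a+/-. All Kat6a+/- libraries were above all WT libraries, and WT replicate 2 was nearest to them. The means were 0.661 ± 0.0977 and 0.948 ± 0.0912 FPKM (SD, n = 4 each), so Kat6a+/- stood at 143% of WT, the highest percentage among the 9 genes, from 41 to 99 reads per library. The log2 difference was 0.32 ± 0.11 (SE; 95% interval 0.08 to 0.56), and 0.53 on the recovered reads with edgeR.

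Mcm4 (ENSMUSG00000022673, chr16:15623897-15637400, minus strand), a core subunit and a substrate of the CDC7 kinase that fires origins, was at 3.32, 2.95, 2.78 and 2.78 FPKM in the WT group and at 2.85, 2.85, 2.86 and 2.27 in Kat6a+/-. Of the 9 genes it alone had a lower mean in Kat6a+/-, 2.71 ± 0.292 against 2.96 ± 0.253 FPKM (SD, n = 4 each), with overlapping groups. The log2 difference was -0.11 (95% interval -0.30 to 0.07) and came to -0.04 without Kat6a+/- replicate 4, the library at 2.27 FPKM, and to -0.06 without WT replicate 1, the library at 3.32 FPKM. Without Kat6a+/- replicate 2 the Mcm4 difference was -0.13.

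Mcm5 (ENSMUSG00000005410, chr8:75109569-75128439, plus strand), which forms with MCM2 the gate through which the ring opens on DNA, was at 1.16, 1.20, 1.40 and 1.13 FPKM in the WT group and at 1.17, 1.16, 1.51 and 1.26 in Kat6a+/-. The groups lay over the same range, and replicate 3 was the highest in each. The log2 difference was 0.04 (95% interval -0.18 to 0.25), and 0.07 without Kat6a+/- replicate 2.

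Mcm6 (ENSMUSG00000026355, chr1:128331590-128359664, minus strand), whose product binds the loading factor CDT1, was at 3.19, 3.65, 3.19 and 2.56 FPKM in the WT group and at 3.24, 3.39, 2.82 and 3.36 in Kat6a+/-. WT held both the highest and the lowest of these values. The log2 difference was 0.03 (95% interval -0.19 to 0.24), and 0.00 without Kat6a+/- replicate 2.

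Mcm7 (ENSMUSG00000029730, chr5:138164583-138172422, minus strand), the subunit whose ubiquitylation precedes removal of the helicase when forks meet, was at 2.55, 2.31, 2.40 and 2.10 FPKM in the WT group and at 2.60, 2.05, 2.50 and 2.29 in Kat6a+/-. The groups lay over nearly the same range. The log2 difference was 0.01 (95% interval -0.17 to 0.19), and 0.06 without Kat6a+/- replicate 2.

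Of the 9 genes, 7 had a mean of at least 0.5 FPKM and entered the limma fit over 14159 genes. None of the 7 was called at an adjusted p of 0.05, beside 0% of all genes tested (0 of 14159, with 624 at an unadjusted p under 0.05; edgeR also called 0, with 616, and DESeq2 called 5, all lower). The limma adjusted p was 0.9998 for each of the 7. Every Kat6a+/- library was above every WT library for 3 of the 9, against 1.09% of genes tested (155 of 14159), and below for 0 of the 9, against 1.53% (216 of 14159); since this contrast chose the genes, nothing is read from these counts. The median log2 difference was 0.04 over the 7 genes and 0.0010 over all genes tested. The authors' deposited table of 605 genes lists 2 of the 9, Tipin with a log2 fold change of 0.32 (p = 0.0104, adjusted p = 0.9998) and Mcm3 with 0.53 (p = 0.0109, adjusted p = 0.9998). The authors' comparison gives Kat6a a log2 fold change of -0.38 (adjusted p = 0.01661). In the limma fit the Kat6a difference was -0.36 (limma adjusted p = 0.9998), so that fit did not call Kat6a either. The lack of calls among the 7 genes therefore does not show that they are unchanged.

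**Figure D2:**
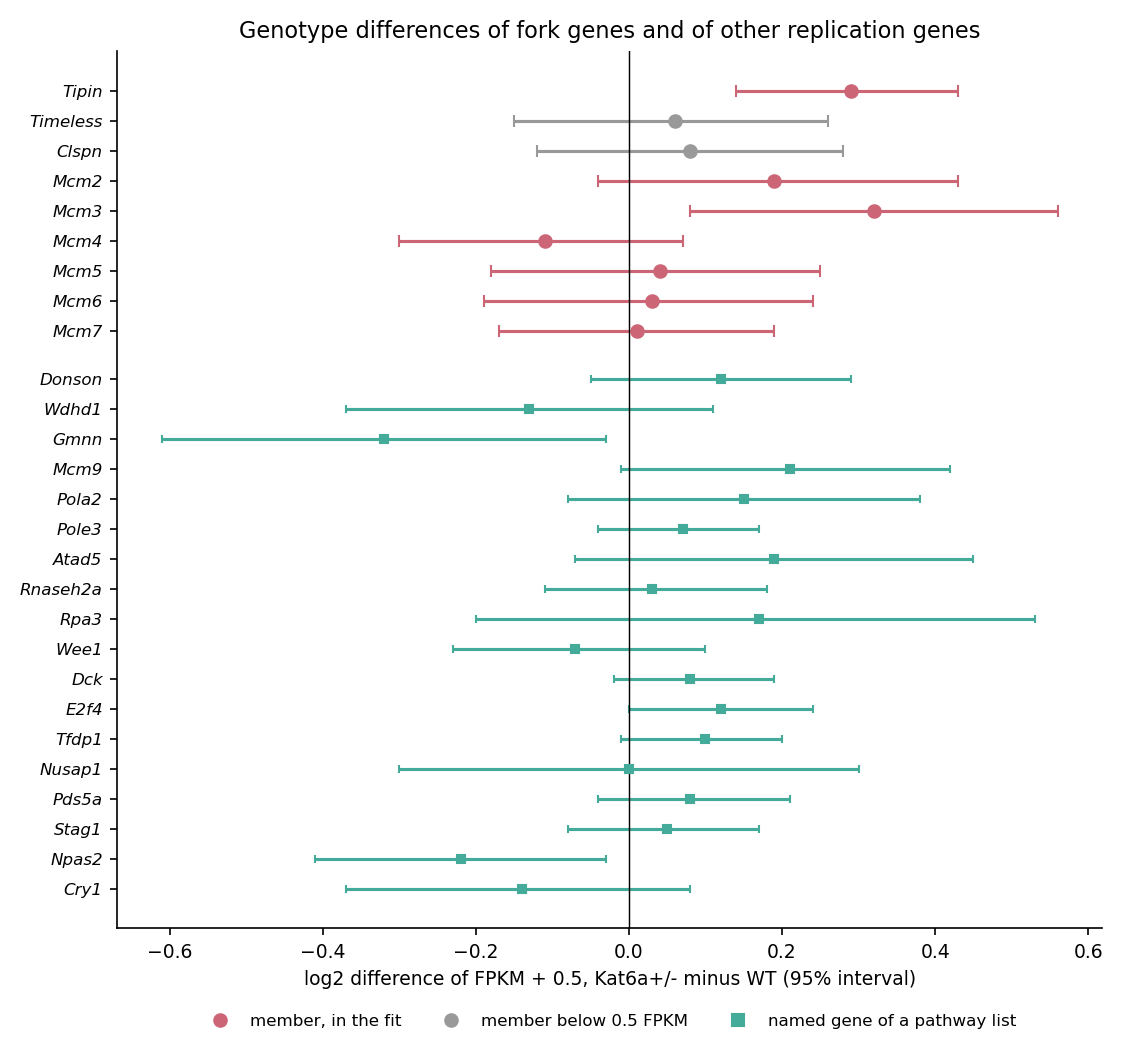
Differences in log2(FPKM + 0.5) between Kat6a+/- and WT (horizontal axis) with 95% intervals for the 9 genes (circles; grey for Timeless and Clspn, below 0.5 FPKM) and for named genes of 10 replication, proliferation and clock lists (squares). The circles run from -0.11 for Mcm4 to 0.32 for Mcm3, with Tipin at 0.29, and the squares from -0.32 for Gmnn to 0.21 for Mcm9; intervals of the circles are descriptions, since this contrast chose the genes.

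Although the assembled ring holds each subunit once, the 6 transcripts were unequal in FPKM, a comparison that depends on the exon lengths used. Of their summed FPKM in each library, where equal shares would be 16.7%, Mcm6 took 28.3% ± 2.38, Mcm4 25.3% ± 2.43, Mcm7 21.0% ± 1.43, Mcm5 11.2% ± 1.22, Mcm3 7.18% ± 1.49 and Mcm2 7.02% ± 1.09 (SD, n = 8). Mcm4, Mcm6 and Mcm7 together took 71.2% to 78.1% in every library. The sum itself was 11.0 ± 0.771 FPKM in the WT group and 11.4 ± 0.231 in Kat6a+/- (SD, n = 4 each), and the groups overlapped.

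Within that nearly equal sum, the share of Mcm3 was 5.34% to 6.99% in WT and 7.32% to 9.56% in Kat6a+/-. The share of Mcm4 was 25.2% to 28.6% in WT and 20.6% to 25.0% in Kat6a+/-. Neither pair of ranges overlapped, Mcm3 being higher and Mcm4 lower in Kat6a+/-, while the shares of the other 4 subunits overlapped. Without Kat6a+/- replicate 2 the Kat6a+/- shares were 7.32% to 9.56% for Mcm3 and 20.6% to 24.9% for Mcm4, still without overlap. Shares in 1 sum are not independent of each other, and these rest on the contrast that chose the genes.

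**Figure D3:**
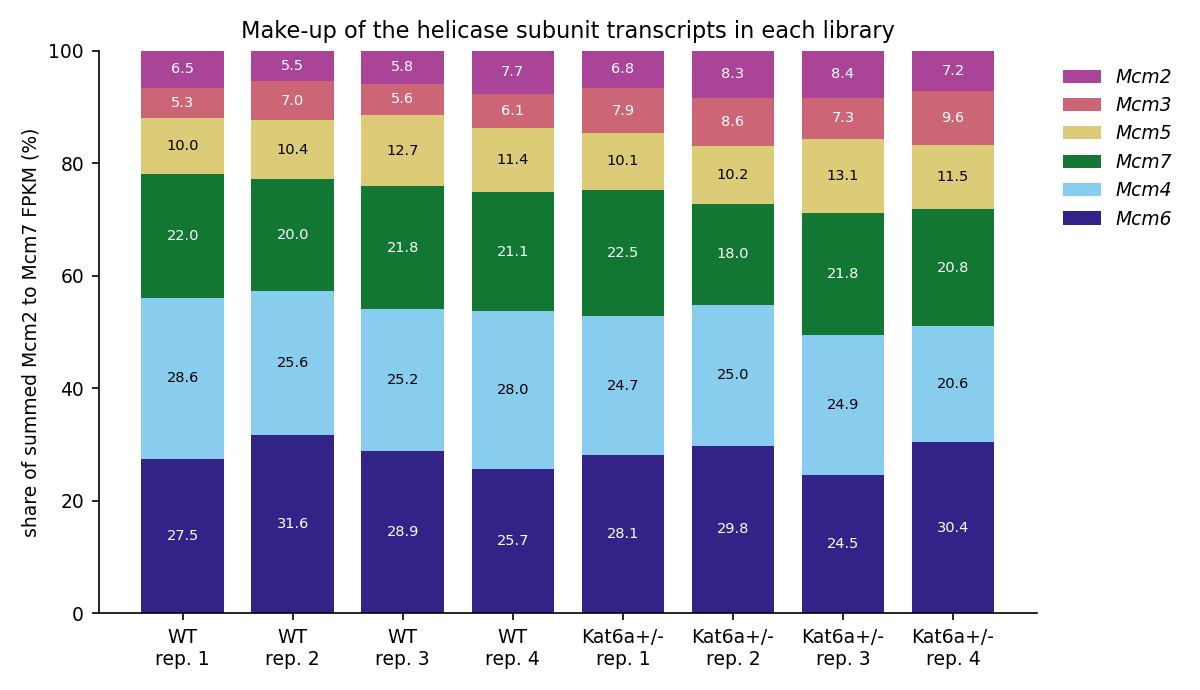
Share (%) of each helicase subunit transcript in the summed FPKM of Mcm2 to Mcm7 (vertical axis) in each of the 8 libraries; colours mark genes and printed numbers the shares. Mcm6, Mcm4 and Mcm7, at the bottom of each bar, take 71.2% to 78.1% of the sum in every library.

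Whether the 9 transcripts moved together from library to library was examined with each genotype's mean removed, so that the genotype contrast is not used. The 36 pairs had a median Pearson r of -0.02 on log2(FPKM + 0.5), with 17 positive and 19 negative. The 15 pairs within Mcm2 to Mcm7 had a median of -0.12 and the 8 pairs with Tipin a median of -0.05. For Tipin with Timeless, the heterodimer's own pair, r was -0.50 and rho 0.00 (exact permutation p = 0.469 for r), and r was 0.97 without the 2 libraries farthest from the median, so its sign rests on those libraries. No pair passed adjustment over the 36 (lowest adjusted p of r 0.953, exact permutation within genotype). The smallest p that this permutation allows is 0.00174, so a lone pair could not have passed adjustment over the 36. Mcm3 and Mcm6 had the highest r, 0.79, with a Spearman rho of 0.88 (exact p = 0.0608 and 0.0104; adjusted 0.953 and 0.375). Tipin and Mcm7 had the lowest r, -0.79, with a rho of -0.55 (exact p = 0.0382 for r), and r was 0.00 without the 2 libraries farthest from the median, so the relation rests on those libraries.

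The spread within a genotype was near the counting error of the reads for several of the 9. The coefficient of variation within genotype was 6.94% for Tipin, where counting alone gives 7.79%, 8.61% for Timeless against 13.5%, and 12.5% for Mcm3 against 13.3%. Mcm6 varied more, 11.7% against 5.91%, a ratio of 1.97, the highest among the 9. Clspn had the largest spread, 32.4%, where counting alone gives 22.3%.

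**Figure D4:**
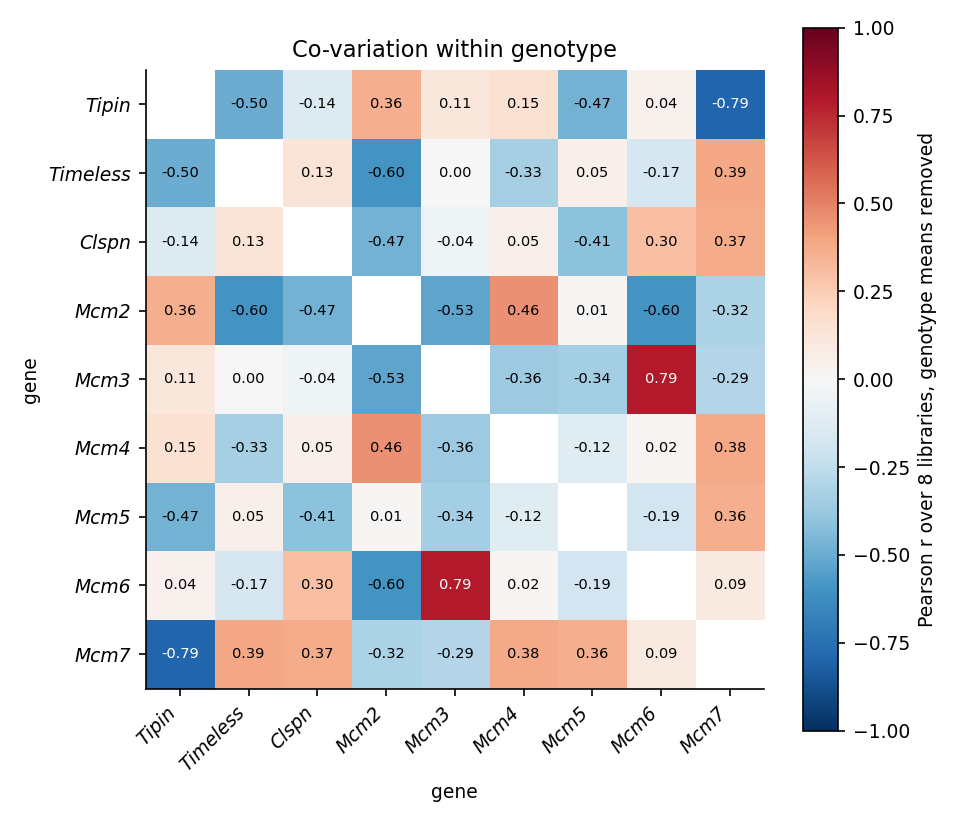
Pearson r between each pair of the 9 genes (both axes) over the 8 libraries after removal of the genotype means; colour and printed number give r. Values scatter on both sides of 0 with a median of -0.02, and the extremes are 0.79 for Mcm3 with Mcm6 and -0.79 for Tipin with Mcm7.

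Over the 8 libraries with the genotype difference kept in, Tipin had an r of 0.79 with Mcm3 and 0.78 with Mcm2, and between -0.35 and 0.27 with the other 6 members. Mcm3 and Mcm2 also separated the genotypes, the contrast that chose the genes. With genotype means removed, r with Tipin was 0.11 for Mcm3 and 0.36 for Mcm2. The 5 genes most like Tipin among 11337 protein-coding genes of at least 1 FPKM outside the 9 were Cep97, which encodes a centrosomal protein (r = 0.960), Spata13 (0.948), Ephx2, which encodes soluble epoxide hydrolase (0.937), Trmo, a tRNA methyltransferase gene (0.928), and Padi2, a peptidylarginine deiminase gene (0.928). All 5 were higher in every Kat6a+/- library than in any WT library; Ephx2, for instance, averaged 5.82 ± 0.370 FPKM in the WT group and 6.84 ± 0.345 in Kat6a+/- (SD, n = 4 each). With genotype means removed, their r with Tipin was 0.66 to 0.81, and without Kat6a+/- replicate 2 their r over the remaining 7 libraries, genotype difference included, was 0.86 to 0.97. They were picked as the highest of all genes ranked and carry no test.

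RefSeq promoter windows (GRCm38.p6, 250 bases before to 50 after a start site) were matched by symbol for 7 of the 9, all but Tipin and Mcm4, in 8 windows. The 3 windows below are shown because Mcm3 and Mcm2 separated the genotypes while Mcm6, the helicase gene with the highest level, did not. Each is printed 5′ to 3′ on the strand of its gene. Capitals mark matches to the E2F-type motifs TTTCCCGC, TTTGGCGC, TTTCGCGC and TTTGCCGC on either strand, where neighbouring matches can overlap.
Mcm3, chr1:20820263-20820562, minus strand: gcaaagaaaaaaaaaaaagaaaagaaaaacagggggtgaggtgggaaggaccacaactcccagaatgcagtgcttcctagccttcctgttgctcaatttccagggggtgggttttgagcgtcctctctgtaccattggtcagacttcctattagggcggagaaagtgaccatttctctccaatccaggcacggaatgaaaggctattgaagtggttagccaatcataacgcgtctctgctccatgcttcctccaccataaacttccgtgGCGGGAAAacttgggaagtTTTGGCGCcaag
Mcm2, chr6:88898731-88899030, minus strand: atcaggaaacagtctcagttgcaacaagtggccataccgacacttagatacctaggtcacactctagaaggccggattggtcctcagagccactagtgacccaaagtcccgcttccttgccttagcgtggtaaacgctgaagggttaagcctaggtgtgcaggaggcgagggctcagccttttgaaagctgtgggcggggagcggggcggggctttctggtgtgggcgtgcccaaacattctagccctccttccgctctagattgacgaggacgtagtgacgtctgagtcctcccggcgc
Mcm6, chr1:128359656-128359955, minus strand: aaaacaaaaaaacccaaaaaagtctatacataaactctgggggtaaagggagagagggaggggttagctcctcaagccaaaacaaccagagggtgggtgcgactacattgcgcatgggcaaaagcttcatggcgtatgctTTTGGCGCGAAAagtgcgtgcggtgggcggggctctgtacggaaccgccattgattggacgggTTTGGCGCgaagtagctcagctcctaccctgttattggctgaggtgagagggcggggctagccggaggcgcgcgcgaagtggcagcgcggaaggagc

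The Mcm3 window holds 2 E2F-type matches, both after the start site, and the Mcm6 window holds 3 matches at 2 places, all before it. The Mcm2 window holds none of these letters. In all, 5 of the 8 windows of the 9 genes hold an E2F-type match, those of Clspn, Mcm3, Mcm5, Mcm6 and Mcm7, against 2.26% of 32851 windows in the table. A CCAAT box was found in 7 of the 8 windows (37.4% of all windows) and a CHR-type element (TTTGAA or TTCGAA), a form of the cell cycle homology region bound by the DREAM complex, in 2, those of Mcm2 and Mcm7 (19.2% of all windows). Matches are descriptions of letters, on both strands, and not of binding. The Timeless window starts from a site 6001 bases inside the gene as listed in the files, and those of Mcm7 from sites 539 and 1156 bases inside it.

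**Figure D5:**
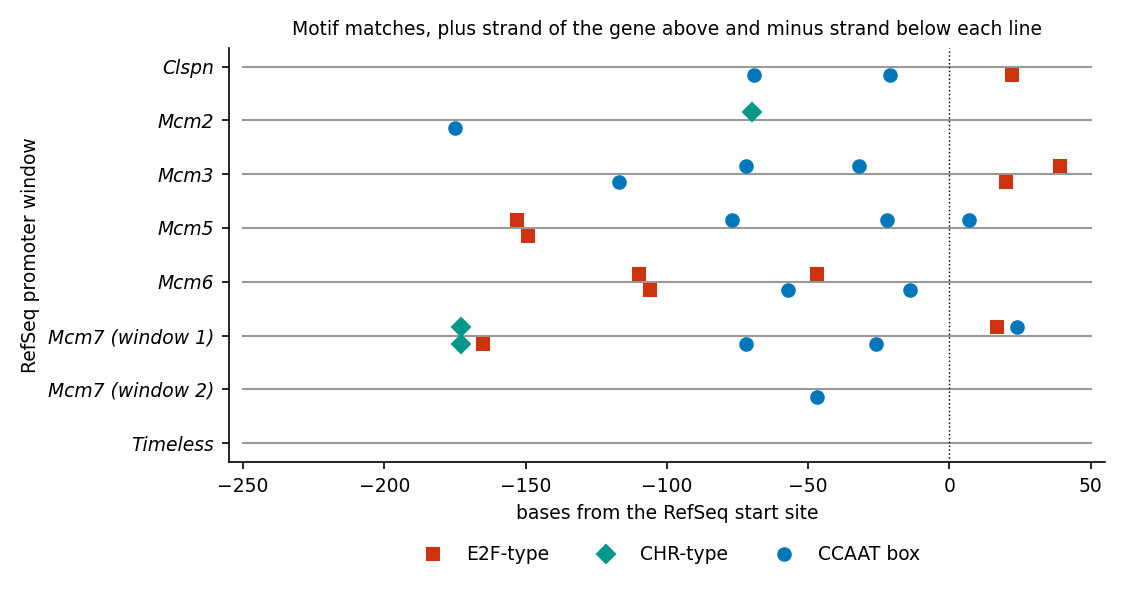
Positions of E2F-type, CHR-type and CCAAT box matches in 8 RefSeq promoter windows of 7 genes, in bases from the start site (horizontal axis); marks above a line are on the strand of the gene and marks below it on the other strand. E2F-type squares appear in 5 of the 8 windows and are absent from that of Mcm2.

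Some of the 9 genes share bases with other genes, and the strand setting of the counting is not given in the sources used here. Mcm7 shares 64 exon bases with Cops6 on the opposite strand, which at 34.3 ± 1.14 FPKM in the WT group and 34.4 ± 1.73 in Kat6a+/- (SD, n = 4 each) was the stronger gene, and 321 exon bases with Ap4m1 (1.71 ± 0.205 and 1.75 ± 0.167 FPKM). Levels of Mcm7 are uncertain to that extent. The miRNA genes Mir106b, Mir93 and Mir25 lie within Mcm7 on its strand; Mir93 and Mir25 were listed at 0 in every library and Mir106b had 5 reads in all. Timeless shares 111 exon bases with the long noncoding RNA gene Gm26847 on the opposite strand, which had 26 reads in all. The small RNA gene Gm24289, in an intron of Tipin, had 4 reads in all, while Mir7119 and Gm12936, in introns of Clspn, were listed at 0. Mcm4 lies head to head with Prkdc, which encodes the catalytic subunit of the DNA-dependent protein kinase, at a distance of 465 bases. Prkdc was at 2.51 ± 0.121 FPKM in the WT group and 2.56 ± 0.157 in Kat6a+/- (SD, n = 4 each), near the level of Mcm4.

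Other replication genes were read from 10 lists of 138 genes in all, which also take in proliferation markers, cohesin and the circadian clock. Of the 138 genes, 93 passed 0.5 FPKM and 0 were called in the fit over all genes. Log2 differences of the 93 were above 0 for 56 and below 0 for 37, with a median of 0.01. Among partners of the helicase at the fork, 5 of 12 genes were tested, 4 with a higher and 1 with a lower Kat6a+/- mean (median 0.04). Their median was -0.02 in the limma fit without a filter, which takes in the low genes of this list. Donson, needed for assembly of the active helicase, averaged 3.19 ± 0.247 FPKM in the WT group and 3.51 ± 0.298 in Kat6a+/- (SD, n = 4 each), and Wdhd1, which links the helicase to polymerase alpha, 0.889 ± 0.112 and 0.770 ± 0.0949 FPKM. Donson and Wdhd1 overlapped between the genotypes.

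Among origin licensing genes, 10 of 14 were tested, 6 higher and 4 lower (median 0.02). Gmnn encodes geminin, the inhibitor of CDT1 that keeps Mcm2 to Mcm7 from being loaded again in S phase. It averaged 1.12 ± 0.181 FPKM in the WT group and 0.802 ± 0.177 in Kat6a+/- (SD, n = 4 each), a log2 difference of -0.32 from 15 to 43 reads per library with overlapping groups. Mcm9, an MCM relative that works in homologous recombination outside the ring of MCM2 to MCM7, averaged 1.04 ± 0.119 and 1.28 ± 0.123 FPKM, a log2 difference of 0.21, also with overlap. Neither passed adjustment (limma adjusted p = 0.9998 for each).

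Of the DNA polymerase and primase genes 10 of 12 were tested, 9 higher and 1 lower, with a median of 0.03 and no gene beyond 0.15 in either direction. Pola2, the second subunit of polymerase alpha, averaged 1.41 ± 0.189 and 1.62 ± 0.203 FPKM, and Pole3, a histone-fold subunit of polymerase epsilon, 10.2 ± 0.440 and 10.7 ± 0.440 FPKM. In the clamp, clamp loader and lagging strand list 11 of 13 were tested, 4 higher and 7 lower (median 0.00). Atad5, which unloads the sliding clamp, averaged 0.588 ± 0.0999 and 0.736 ± 0.0684 FPKM, and Rnaseh2a, a ribonuclease H2 gene, 3.23 ± 0.229 and 3.32 ± 0.183 FPKM. All these values are means ± SD of 4 WT and 4 Kat6a+/- libraries in that order, as are those of the next paragraph.

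In the RPA and ATR checkpoint list, where the signal carried by Tipin, Timeless and Clspn begins and ends, 11 of 13 genes were tested, 5 higher and 6 lower (median -0.01). Rpa3, the small RPA subunit, averaged 3.08 ± 0.782 and 3.47 ± 0.580 FPKM, and Wee1, the kinase that restrains CDK1, 7.02 ± 0.489 and 6.69 ± 0.667 FPKM. For nucleotide supply 7 of 9 were tested, 6 higher and 1 lower (median 0.05), with Dck, deoxycytidine kinase, at 6.20 ± 0.244 and 6.61 ± 0.139 FPKM. Of the E2F, pocket protein and DREAM genes 14 of 19 were tested, 9 higher and 5 lower (median 0.00). E2f4 averaged 8.87 ± 0.473 and 9.65 ± 0.468 FPKM, and Tfdp1, the dimer partner of E2F proteins, 12.4 ± 0.628 and 13.3 ± 0.187 FPKM. The genotypes of Tfdp1 did not overlap but nearly met, with WT replicate 2 and Kat6a+/- replicate 2 both at 13.0 FPKM after rounding. Of the 93 list genes tested, 1 had every Kat6a+/- library above every WT library, against 1.09% of all genes tested. Cohesin genes had 10 of 12 tested, 6 higher and 4 lower (median 0.01), with Pds5a at 3.54 ± 0.165 and 3.77 ± 0.169 FPKM and Stag1 at 3.10 ± 0.141 and 3.22 ± 0.109 FPKM.

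Since Timeless takes its name from a clock gene, the circadian clock was listed too: 14 of 14 genes were tested, 6 higher and 8 lower (median 0.00). Npas2, a partner of ARNTL, averaged 5.08 ± 0.694 and 4.26 ± 0.225 FPKM, a log2 difference of -0.22, and Cry1, a clock repressor, 4.29 ± 0.699 and 3.81 ± 0.279 FPKM (SD, n = 4 each). Both overlapped between the genotypes, as Timeless did.

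Mitotic genes were listed beside the 9 to compare levels per length in this tissue. Of 20 proliferation markers only Nusap1, a spindle protein gene, averaged at least 0.5 FPKM (0.871 ± 0.101 in WT, 0.884 ± 0.227 in Kat6a+/-; SD, n = 4 each), and the median of their means was 0.299 FPKM. Tipin, Mcm4, Mcm5, Mcm6 and Mcm7 had means above all 20. Mki67, which encodes the Ki-67 antigen, averaged 0.371 ± 0.111 and 0.436 ± 0.0869 FPKM and Top2a, topoisomerase II alpha, 0.258 ± 0.0484 and 0.302 ± 0.0297 FPKM (SD, n = 4 each). The summed markers ran from 4.86 to 6.13 FPKM in the WT group and from 5.10 to 6.84 in Kat6a+/-. Markers of progenitors and young cells were present in all libraries: Dcx of neuroblasts and young neurons averaged 1.64 ± 0.285 and 1.58 ± 0.0867 FPKM, Eomes of intermediate progenitors 0.138 ± 0.0294 and 0.214 ± 0.0886 FPKM, and Pdgfra of oligodendrocyte precursors 7.15 ± 0.808 and 6.64 ± 0.281 FPKM.

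With genotype means removed, no relation of Tipin or of the mean of Mcm2 to Mcm7 with the proliferation markers passed a test over the 8 libraries (r = -0.16 and -0.30; exact permutation p = 0.901 and 0.429; rho = -0.07 and -0.31; exact p = 0.927 and 0.438). For Tipin r was -0.94 without the 2 libraries farthest from the median, and for the Mcm mean 0.16. The strongest of the 8 relations was between the Mcm mean and oligodendrocyte precursor markers (r = -0.76, rho = -0.81; exact p = 0.0833 and 0.0365; adjusted 0.667 and 0.292), and none of the 8 passed adjustment.

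By replicate number, which the labels give without saying what it marks, the Kat6a+/- means stood at these percentages of WT, first in replicates 1 and 2 and then in replicates 3 and 4. Tipin stood at 134% and 116%, Timeless at 111% and 107%, and Clspn at 146% and 106%. Mcm2 stood at 124% and 125%, Mcm3 at 133% and 156%, and Mcm4 at 90.8% and 92.1%. Mcm5, Mcm6 and Mcm7 were below 100% in replicates 1 and 2, at 98.5%, 96.9% and 95.6%, and above it in replicates 3 and 4, at 109%, 107% and 107%. For the 3 genes without overlap between the genotypes the direction in each part is fixed by the lack of overlap and shows nothing more.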

How the data were processed

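Hippocampal total RNA was sequenced by the authors in 4 WT and 4 Kat6a+/- libraries; the submitters' processing notes name STAR 2.5, HTSeq and DESeq2 and the builds GRCm38 and mm10, without the role of each tool, and the strand setting is not given in the sources used here. Levels are FPKM as deposited by the authors, with the deposited gene lengths. The authors' deposited comparison gives whole read counts, log2 fold changes and p-values for 605 genes. FPKM times length and 1 constant per library came out whole for 100% of values (tolerance 0.01 reads) and equalled all 4840 deposited counts, so reads per gene were recovered; their totals are the depths given.

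Genotype differences come from limma 3.58.1 (R 4.3.3, trend) on log2(FPKM + 0.5), which understates changes of low genes, over 14159 genes whose mean reached 0.5 FPKM, with Benjamini-Hochberg adjustment and a threshold of 0.05. edgeR 4.0.16, DESeq2 1.42.0 and voom on recovered reads, other pseudocounts (0.1 and 1), filters and scalings, a replicate block, replicates 1 and 2 against 3 and 4 as a term and each library left out were alternatives. The scripts were tested on simulated data with planted changes larger than the genotype differences of the 9 genes. That test does not show whether differences as small as these would be called. Order of levels was tested by exact sign flips, co-variation by all 576 pairings within genotype. Timeless and Clspn, below the filter, take their differences from the fit over all 30875 genes with a read. Reads per library, given for some genes, set the counting error, which the spread within genotype exceeded for some of the 9. Coordinates and lengths in the files equal GENCODE M21 for all 9 genes; promoter windows are RefSeq's, GRCm38.p6. Members and lists were chosen with earlier results of these data known. Genes named are the 9, Kat6a, overlapping genes, the 2 genes of smallest unadjusted p per pathway list (up to 4 where any is called), the 5 genes most like Tipin, and marker genes; Rbfox3, Prox1, Wfs1, Mki67, Top2a, Dcx, Eomes, Pdgfra and Prkdc were added after their values were seen. Of the genes so chosen, 1 is not reported here.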

Additional observations from a re-analysis of the deposited data

Results flagged for a closer look

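In 58 groups of 4 libraries examined, 4 held a library far from the others, by a gap whose share of the group's range exceeded Dixon's 95% critical value; chance gives about 1 in 20. Mcm3 was at 0.807 FPKM in WT replicate 2 and at 0.603 to 0.620 FPKM in the other WT libraries; without that library its log2 difference was 0.38. Mcm4 was at 2.27 FPKM in Kat6a+/- replicate 4 and at 2.85 to 2.86 FPKM in the other Kat6a+/- libraries. Mcm9 was at 1.22 FPKM in WT replicate 4 and at 0.968 to 0.988 FPKM in the other WT libraries. Tfdp1 was at 13.0 FPKM in Kat6a+/- replicate 2, the lowest of its genotype, with the other 3 at 13.4 FPKM.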

How the results depend on the processing

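Against 0 genes called by limma, DESeq2 called 5 on recovered reads after the same filter and 1 over every gene with a read, an alternative chosen after seeing the data; the cause was not tested. Leaving out a library gave 0 to 1 called genes: 1 lower without WT replicate 3 and 1 higher without Kat6a+/- replicate 3. The median difference of the members, 0.04, was 0.13 with DESeq2 over every gene with a read, against 0.06 in the limma fit without a filter on the same 9 genes, and 0.01 to 0.09 with a library left out. The median within-genotype r, -0.02, was -0.14 with the means of replicates 1 and 2 and of 3 and 4 also removed and -0.09 to 0.02 with a library left out.

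Differences ran from 0.23 to 0.32 for Tipin and -0.14 to -0.04 for Mcm4 over 20 alternatives, and from 0.14 to 0.31 for Mcm2 and 0.23 to 0.53 for Mcm3 over the 19 that test them; where groups do not overlap, leaving out a library cannot change the sign. Mcm5 (-0.02 to 0.09), Mcm6 (-0.06 to 0.09) and Mcm7 (-0.03 to 0.06) changed sign. Timeless and Clspn came to 0.13 and 0.35 with DESeq2 over every gene with a read. The order of levels gave 6 separated neighbour pairs without each library in turn, of which 4 to 6 were those of all 8 libraries, 4 without WT replicate 2 and without Kat6a+/- replicate 4. The median of the fork partner list, 0.04, was -0.02 in the limma fit without a filter and -0.13 with DESeq2 over every gene with a read. That of proliferation markers, 0.00 from Nusap1 alone, was 0.04 and 0.22 in these fits. For nucleotide supply the median of 0.05 was 0.11 without WT replicate 2. Proliferation markers gave no value at a mean of at least 1 FPKM. Deviations of same-numbered libraries had r of 0.17, -0.07, 0.07 and 0.01, and those of libraries with unlike numbers -0.13 to 0.09. Whether the numbers mark a pairing or a batch cannot be told from these values. With a replicate block 0 genes were called (770 at an unadjusted p under 0.05, against 624), and Tipin stayed at 0.29. Depth limits Clspn most, at 12 to 53 reads per library.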
